A study of Homo sapiens with 4 samples.

Results

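The nucleolar ribosome biogenesis genes form a list of 36 protein-coding genes, out of 19974 on chromosomes 1 to 22 and X, whose products make ribosomal RNA (rRNA) or help to process, modify and assemble it. The members were chosen by name, and their RNA polymerase II (Pol II) peaks were those that touched the gene or the 5000 bp on either side of it in the RefSeq gene table (GRCh38). All 36 names matched that table. The peaks come from chromatin immunoprecipitation and sequencing (ChIP-seq) in U2OS, a human osteosarcoma cell line, 48 h after transfection of an siRNA against NKAP, a nuclear RNA-binding protein, or of a control siRNA. Both groups received an siRNA by lipid transfection, and each group holds 1 Pol II ChIP library, so replicate spread is unknown and every difference below is given without a test. The 2 input libraries of the series, sheared chromatin of the knockdown and control cells without antibody, were not analysed here.

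Ribosomes begin in the nucleolus, where RNA polymerase I (Pol I) transcribes the precursor of the large rRNAs. Small nucleolar RNAs (snoRNAs), carried in protein complexes called snoRNPs, guide the methylation and pseudouridylation of that precursor, and large assemblies fold and cut it into the small and the large ribosomal subunit. The genes of all these proteins are transcribed by Pol II, and many are known targets of MYC, a growth-promoting factor that binds the E-box CACGTG together with MAX. Several of them also carry snoRNA genes in their introns.

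RefSeq promoter sequences (GRCh38.p14, 250 bases before to 50 bases after the start of each gene) were found for 29 of the 36 members; none was used for NOP58, UTP23, RRP12, BOP1, RRP1B, RRS1 and NOLC1. The stretches that follow are shown because they carry the E-box next to the start site, which the choice of members did not use. Each holds 120 bases before the start site and the first 30 bases from it, 5′ to 3′ on the strand of the gene, with CACGTG in capitals. They lie at chr19:39846350-39846499 (minus strand) for FBL, chr2:28894547-28894696 (plus strand) for WDR43, chr17:51260426-51260575 (plus strand) for UTP18 and chr12:101279985-101280134 (plus strand) for UTP20. The others lie at chr16:69132529-69132678 (plus strand) for UTP4, chr11:34105509-34105658 (plus strand) for NAT10, chr3:51941875-51942024 (minus strand) for RRP9 and chr15:34343107-34343256 (minus strand) for NOP10.
FBL: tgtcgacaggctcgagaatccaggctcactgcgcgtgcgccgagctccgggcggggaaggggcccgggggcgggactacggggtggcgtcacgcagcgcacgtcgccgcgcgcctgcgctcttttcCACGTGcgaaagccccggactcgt
WDR43: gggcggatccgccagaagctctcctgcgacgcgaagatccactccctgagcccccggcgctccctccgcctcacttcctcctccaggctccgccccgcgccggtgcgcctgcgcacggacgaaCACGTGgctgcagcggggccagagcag
UTP18: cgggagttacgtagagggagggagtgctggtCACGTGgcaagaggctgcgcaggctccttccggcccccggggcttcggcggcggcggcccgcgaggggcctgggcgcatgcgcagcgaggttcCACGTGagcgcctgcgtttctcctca
UTP20: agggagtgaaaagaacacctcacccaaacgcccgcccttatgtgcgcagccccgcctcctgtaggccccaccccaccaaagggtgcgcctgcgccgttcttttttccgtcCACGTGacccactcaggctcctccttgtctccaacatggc
UTP4: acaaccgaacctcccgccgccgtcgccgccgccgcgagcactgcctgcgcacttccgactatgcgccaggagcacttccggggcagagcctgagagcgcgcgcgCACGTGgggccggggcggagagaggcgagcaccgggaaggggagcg
NAT10: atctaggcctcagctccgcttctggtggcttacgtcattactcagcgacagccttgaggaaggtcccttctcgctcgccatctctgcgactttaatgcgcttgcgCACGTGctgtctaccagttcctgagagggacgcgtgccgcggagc
RRP9: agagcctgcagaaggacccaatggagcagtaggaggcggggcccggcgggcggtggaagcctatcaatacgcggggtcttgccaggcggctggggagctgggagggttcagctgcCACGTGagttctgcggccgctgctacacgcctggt
NOP10: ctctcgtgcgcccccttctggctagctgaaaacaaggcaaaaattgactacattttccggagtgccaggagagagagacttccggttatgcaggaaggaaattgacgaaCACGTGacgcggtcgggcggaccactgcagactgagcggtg

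The same stretch is shown for NOP56, NCL and NPM1, the 3 members with the most Pol II reads, which hold no CACGTG in the 300 bases and so have no capitals. They lie at chr20:2652512-2652661 (plus strand) for NOP56, chr2:231464455-231464604 (minus strand) for NCL and chr5:171387729-171387878 (plus strand) for NPM1.
NOP56: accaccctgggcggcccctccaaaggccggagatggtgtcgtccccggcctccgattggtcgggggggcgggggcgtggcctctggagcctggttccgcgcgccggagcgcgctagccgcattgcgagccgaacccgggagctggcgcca
NCL: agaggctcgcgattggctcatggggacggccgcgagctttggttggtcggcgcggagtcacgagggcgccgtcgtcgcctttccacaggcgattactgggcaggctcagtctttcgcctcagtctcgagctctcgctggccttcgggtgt
NPM1: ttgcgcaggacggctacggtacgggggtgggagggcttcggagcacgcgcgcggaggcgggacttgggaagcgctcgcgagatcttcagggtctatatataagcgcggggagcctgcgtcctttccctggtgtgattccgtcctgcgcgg

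An E-box stood in 12 of the 29 member promoters (41.4%), against 1403 of 15812 promoters of protein-coding genes (8.87%). In all 12 an E-box began within 50 bp of the start site, from 16 bp before it at UTP4 to 35 bp after it at NOP2, and 3.46% of all promoters held one in that range. The other carriers were NOP14, BYSL, PES1 and NOP2, beside the 8 shown above. UTP18 and NOP10 held a second E-box 89 and 170 bp before the start site. The word reads the same on both strands, and a match is a description of the sequence and not a bound site.

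Of the 8 motifs searched on both strands, none of which holds another, the ETS word CCGGAAG stood in 9 member promoters (31.0%, against 14.2% of all promoters) and the GC box GGGCGG in 21 (72.4%, against 58.5%). CCAAT was found in 11 members (37.9%, against 36.3%), TATAAA in 1 (3.45%, against 9.64%), the palindrome of NRF1 in 2 (6.90%, against 1.76%), a CGCG palindrome in 1 (3.45%, against 0.670%) and AAGATGGCG in 0 of 29 (against 2.74%). The E-box thus had the largest gap in percentage points between members and all promoters among these 8. In the 72 promoters found for 86 other ribosome biogenesis genes, listed further on, the E-box stood in 20 (27.8%) and the ETS word in 33 (45.8%).

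The reads at each summit were worked out from the deposited fold and p-value, since the peak caller derives both from the reads and a local background. The knockdown list held 26387 peaks with a median of 19 reads at the summit, and the control list 36345 peaks with a median of 18. Estimated depth in the knockdown library was 0.857 of that in the control one. The NKAP gene had 13 reads in the knockdown library and 12 in the control library at its peak; an siRNA acts on the transcript, so this does not check the knockdown. Among markers of mesenchymal and bone cells, RUNX2, COL1A1, COL5A1, SPARC, FN1 and VIM had a peak in both lists within 5000 bp, and COL1A2 and TWIST1 had none in either list. None of 5 hepatocyte and 5 keratinocyte markers had a peak. In both lists 2 of 5 lymphocyte markers and 3 of 5 neuron markers had one, and the neuron marker GAD1 had one of 16 reads in the control list alone. At the neuron markers SYN1 and SNAP25 a peak reached within 1000 bp of a gene end in both lists. The peaks at these markers may belong to neighbouring genes, which was not tested.

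Pol II was found at every one of the 36 genes in both libraries. A peak lay within 5000 bp in both lists for 36 of 36 members, against 64.7% of all protein-coding genes, and 0 members had a peak in a single list (all genes: 1.74% in the knockdown list alone and 5.34% in the control list alone). A peak reached within 1000 bp of a gene end in both lists for 35 members, against 55.0% of all genes. PES1, of the complex that matures the large subunit rRNA, was in the control list alone by this measure (all genes: 4.86%). Its start site in the promoter table lies inside the annotated gene, and there it had 34 reads in the knockdown library and 41 in the control library. The control peaks near its ends were weak, with 14 and 16 reads.

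The strongest summit of each member had from 14 (GAR1) to 108 (NOP56) reads in the knockdown library and from 17 (RRP12) to 134 (NPM1) in the control library. The medians over the members were 41 and 48.5 reads, against 31 and 40 over the 12858 protein-coding genes with a summit in both lists. These are strong peaks within their own lists: the median member lay above 89.0% of knockdown peaks and above 90.3% of control peaks by p-value. The strongest peaks of the lists overlapped at 34 of 36 members, with the summits a median of 83.5 bp apart. The exceptions were BOP1 and POLR1B, where a different peak of the window was the strongest in each list.

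**Figure D1:**
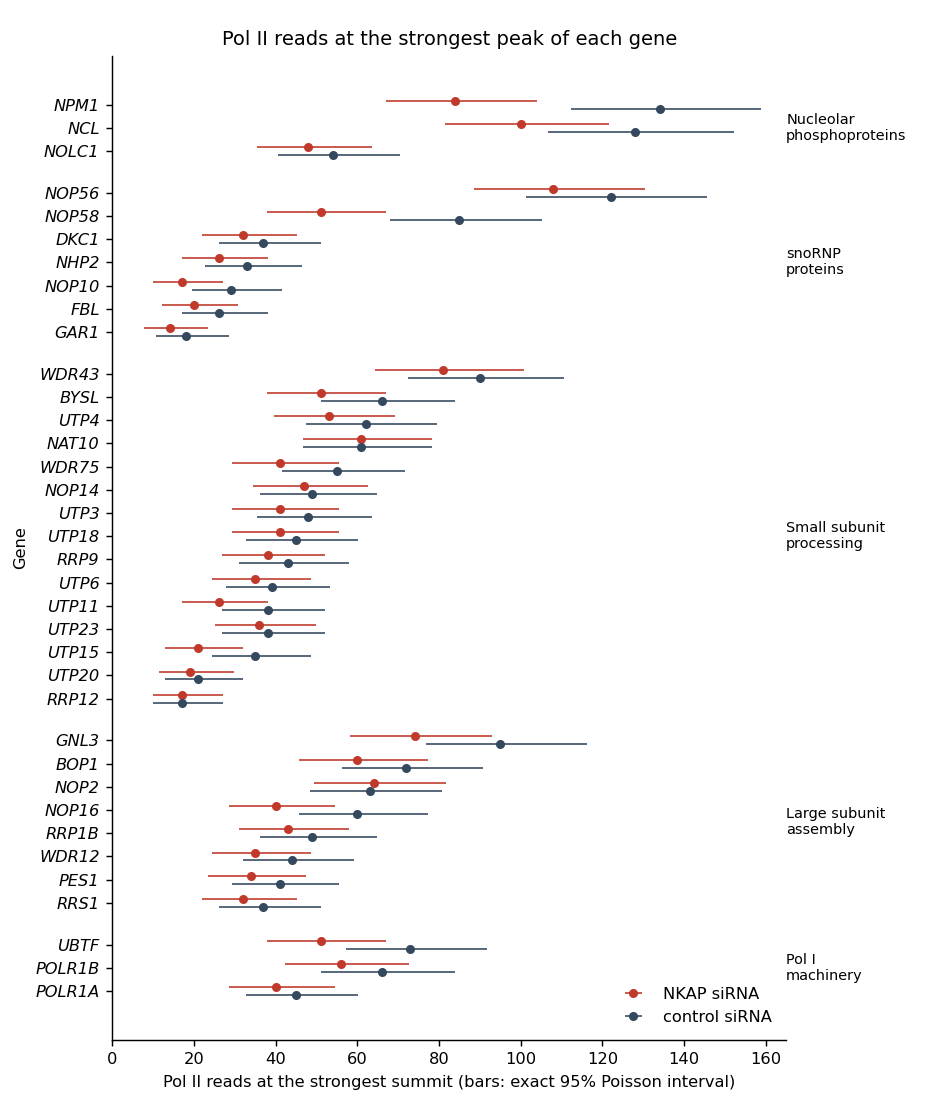
Pol II reads at the strongest summit of each of the 36 genes, grouped by role, in NKAP siRNA cells (red, upper) and control siRNA cells (dark, lower); the x axis counts reads, points are the single library of each condition and bars are exact 95% Poisson intervals (counting error only). NOP56, NCL and NPM1 have the most reads in both libraries, and 33 of 36 genes have fewer reads in the knockdown library. Fewer reads in that library were general: at the start site they were lower at 25 of 28 members and at 7126 of 8454 protein-coding genes.

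NCL and NPM1, which encode abundant nucleolar proteins, were with NOP56 the 3 members with the most Pol II reads in both libraries. NCL (chromosome 2, 231453531 to 231464484) encodes nucleolin, an RNA-binding protein of the nucleolus, and had 100 reads in the knockdown library (exact 95% Poisson interval 81.4 to 122) and 128 in the control library (107 to 152). NPM1 (chromosome 5, 171387116 to 171410900) encodes nucleophosmin, a nucleolar chaperone, and had 84 reads (67.0 to 104) in the knockdown library and 134 (112 to 159) in the control library. The intervals did not overlap at NPM1, nor at NOP58 among the other members, but the libraries differ in depth. The relative ratios below are divided by the ratio of the median gene, 0.773, and not by the depth ratio of 0.857. Before that division, the knockdown to control ratio was 0.627 at NPM1 (exact 95% interval 0.471 to 0.830). At NOP58 it was 0.6 (0.415 to 0.859). NOLC1, a chaperone of snoRNPs, had 48 and 54 reads in knockdown and control. The deposited folds of NCL were 39.8 in the knockdown list and 56.1 in the control list, and those of NPM1 38.3 and 58.1. Folds are the authors' values and rest on the local background of each list, so they describe each list alone.

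The snoRNP genes ran from 14 (GAR1) to 108 (NOP56) reads in the knockdown library and from 18 (GAR1) to 122 (NOP56) in the control library. The core proteins of the methylation-guide (box C/D) snoRNPs include the methyltransferase FBL and the scaffold proteins NOP56 and NOP58. NOP56 (chromosome 20, 2652632 to 2658393) had 108 reads in the knockdown library and 122 in the control library, NOP58 (chromosome 2, 202265763 to 202303661) had 51 and 85, and FBL (chromosome 19, 39834458 to 39846379) had 20 and 26. NOP56 thus had the most reads and FBL the fewest of these 3 genes in each library; a summit is a single position, so its reads do not grow with gene length.
The pseudouridine-guide (box H/ACA) snoRNPs hold DKC1, the pseudouridine synthase, and the partners GAR1, NHP2 and NOP10. DKC1 (chromosome X, 154762864 to 154777689) had 32 reads in the knockdown library and 37 in the control library, NHP2 had 26 and 33, and GAR1 had 14 and 18. The strongest summit in the NOP10 window, with 17 reads in the knockdown library and 29 in the control library, lay outside the gene; at its own start site NOP10 had 17 and 19 reads.

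The Pol I group was of middle to high level. POLR1A and POLR1B encode the largest subunits of Pol I, and UBTF encodes the factor that opens the rRNA genes for it. POLR1A (chromosome 2, 86020216 to 86105886) had 40 reads in the knockdown library and 45 in the control library, at a peak it shares with an end of PTCD3. POLR1B (chromosome 2, 112542036 to 112579818) had 56 and 62 reads at its start site, beside an end of TTL; its strongest control summit, 66 reads, lay beside CHCHD5. UBTF (chromosome 17, 44205040 to 44221304) had 51 reads in the knockdown library and 73 in the control library, with the summit 1704 and 2045 bp past the start site in a peak of 3242 and 4805 bp that covers that site.

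Among the 15 genes of small subunit processing, most of which act in the assembly that folds and cuts the pre-rRNA, WDR43 had the most reads, 81 in the knockdown library and 90 in the control library. NAT10, an acetyltransferase of small subunit rRNA, had 61 and 61, UTP4 had 53 and 62, BYSL, a late assembly factor, 51 and 66, and NOP14 47 and 49. The lowest were RRP12, with 17 and 17 reads, and UTP20, with 19 and 21. Between these, WDR75, UTP3, UTP18, RRP9, UTP6, UTP11, UTP23 and UTP15 had 21 to 41 reads in the knockdown library and 35 to 55 in the control library. The NOP14 and UTP6 summits lay beside ends of SLC75A1 and COPRS; at their own start sites NOP14 had 25 and 29 reads and UTP6 had 34 and 33.

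Among the 8 genes of large subunit assembly, GNL3, the nucleolar GTPase nucleostemin, had 74 reads in the knockdown library and 95 in the control library, at a summit beside an end of PBRM1. Its fold was 13.9 in the knockdown list and 41.7 in the control list, with a local background of 4.00 and 1.30 reads, so the gap between the folds is wider than that between the reads. NOP2, an rRNA methyltransferase, had 64 and 63 reads and was the single member with more reads in the knockdown library. BOP1, which forms a complex with PES1 and WDR12, had 49 reads in the knockdown library and 72 in the control library at the end it shares with HSF1, where the control summit was its strongest; the strongest knockdown summit, 60 reads, lay 2479 bp from its other end. WDR12 had 35 and 44 reads, RRS1 32 and 37, RRP1B 43 and 49, and NOP16 40 and 60.

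Relative to the median gene, most members had a higher ratio of knockdown to control reads, though none beyond its counting error. A gene's ratio of knockdown to control reads had a median of 0.773 over the 12858 genes and of 0.851 over the 36 members, beside the depth ratio of 0.857. Divided by the median gene, the members ran from 0.759 (NOP10) to 1.31 (NOP2), with a median of 1.10 and quartiles of 0.999 and 1.15; the quartiles of all genes were 0.863 and 1.18. At or above the median gene lay 27 members (all genes: 50.4%), of which BYSL stood at 1.00, and 9 lay below it (all genes: 49.6%). None of the 36 lay at least 1.5 times above or below the median gene, where 6.10% and 4.60% of all genes did, and the exact 95% interval of 36 of 36 members took in 1.

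**Figure D2:**
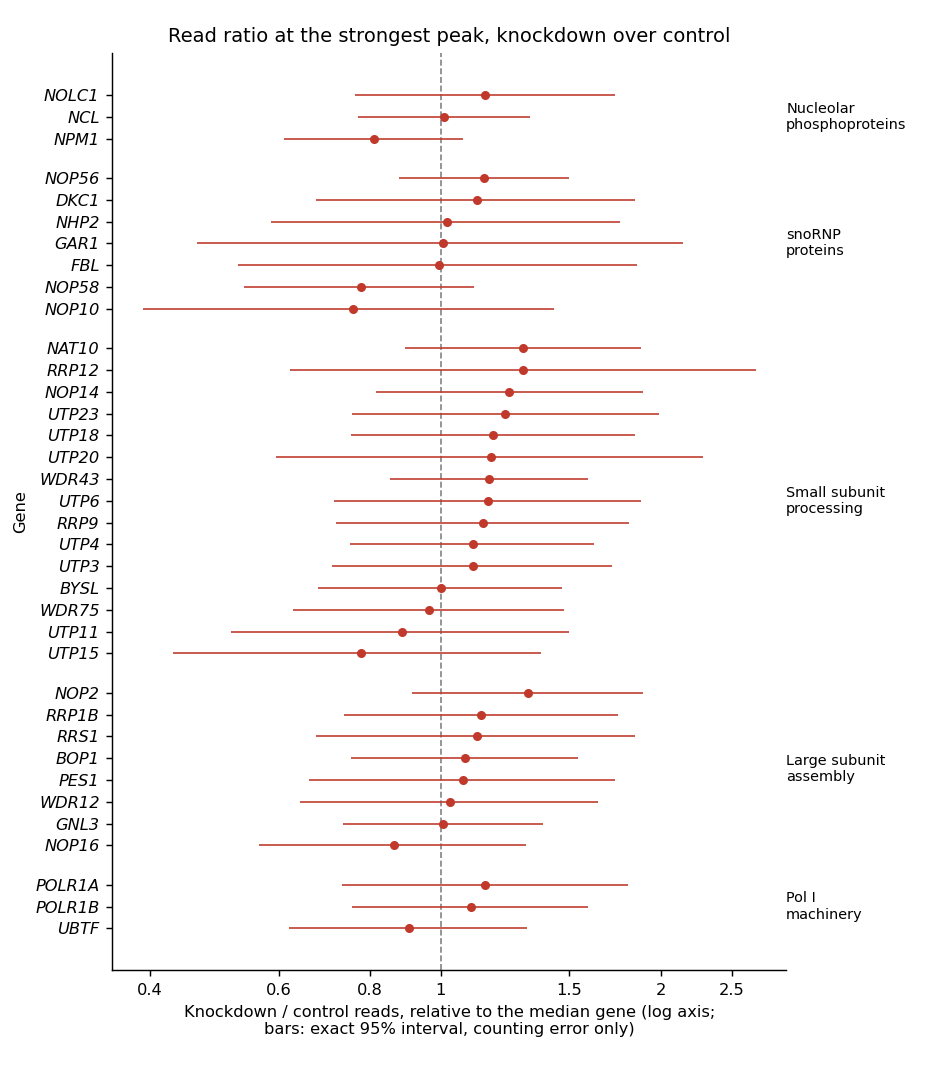
Ratio of knockdown to control reads at the strongest summit of each gene, divided by the median ratio of all genes (log axis), grouped by role; bars are exact 95% intervals that cover counting error only, and the dashed line is the median gene. The points lie between 0.759 and 1.31 and the bars all cross the line.

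The highest ratios were those of NOP2 (1.31, exact 95% interval 0.914 to 1.89), NAT10 (1.29, 0.892 to 1.88), RRP12 (1.29, 0.621 to 2.70), NOP14 (1.24) and UTP23 (1.23). The lowest were those of NOP10 (0.759, 0.391 to 1.43), NOP58 (0.776, 0.538 to 1.11), UTP15 (0.776, 0.429 to 1.37), NPM1 (0.811, 0.610 to 1.07) and NOP16 (0.863, 0.563 to 1.31). The strongest summits of NOP10, NOP14 and UTP6 lay beside other genes. When read at their own start sites, NOP10 stood at 1.16 and NOP14 at 1.12. UTP6, at 1.16 by its strongest summit, stood at 1.34 at its own start site. That was the highest of the 28 members with a summit there, with NOP2 at 1.32. By role, the median was 1.16 for small subunit processing (11 of 15 above the median gene), 1.08 for large subunit assembly (7 of 8), 1.10 for the Pol I group (2 of 3), 1.01 for the nucleolar phosphoproteins (2 of 3) and 1.01 for the snoRNP proteins (4 of 7). The large subunit and Pol I values include BOP1 (1.08) and POLR1B (1.10), whose ratios compare different peaks. Read within the strongest control peak, BOP1 stood at 0.892 and POLR1B at 0.874, both below the median gene. At its start site POLR1B stood at 1.17. Genes with few control reads have higher ratios in general, so the members were also read beside genes of like strength. With 41 to 60 control reads, 11 members had a median of 1.14 and 3496 genes one of 0.963; with 61 to 150, 13 members had 1.08 and 2638 genes 0.927. With 21 to 40 control reads, 10 members had 1.07 and 4956 genes 1.04. With up to 20 control reads the order was the other way, with 1.15 for 2 members and 1.29 for 1652 genes.

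At the start site itself, 12 members with an E-box had a median relative ratio of 1.15 (11 above 1 and 1 below) and 16 without one had 1.02 (11 above and 5 below). Over all genes with a summit there, the medians were 1.01 for 934 genes with an E-box and 0.997 for 7520 without. The split of the members was made after their values were seen and was given no test. The E-box carriers had 39.5 and 44 reads at the median in knockdown and control, and the others 40 and 46.5, so the levels of the 2 sets were alike in each library.

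**Figure D3:**
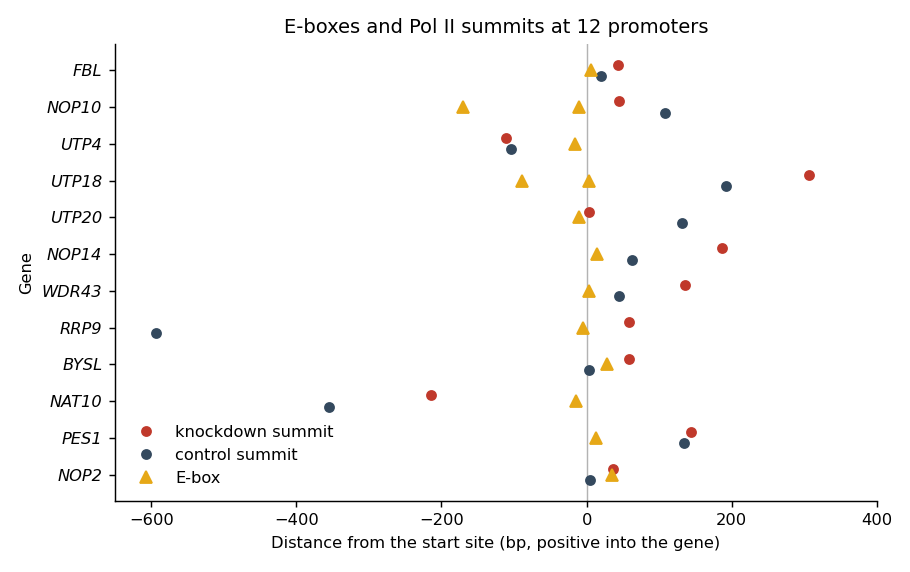
Position of each E-box (triangles) and of the start-site summit in the knockdown (red) and control (dark) list at the 12 member promoters that hold an E-box; the x axis is the distance from the start site in bp, positive into the gene. Each promoter holds an E-box between 16 bp before and 35 bp after the start site, UTP18 and NOP10 hold a second 89 and 170 bp before it, and the summits spread from 594 bp before to 306 bp after it.

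The start sites of the members were covered by peaks, though many other summits in their windows lay elsewhere. Within 1000 bp of the start sites lay 29 summits in the knockdown list and 28 in the control list. Bodies held 15 and 39 summits in knockdown and control, and downstream flanks 24 and 24. All 29 start sites of the promoter table were covered by a peak in both lists, against 51.1% (knockdown) and 55.7% (control) of the 15812 start sites of protein-coding genes. A summit lay within 1000 bp of the start site in both lists for 28 of 29 members (all genes: 53.5%) and in a single list for 0 (all genes: 2.10% in the knockdown list alone and 4.66% in the control list alone). The exception was UBTF, whose summit lay further in. The start-site peaks had a median width of 1492.5 bp in the knockdown list and 1907.5 bp in the control list, and were narrower in the knockdown list at 25 of 28 members (all genes: 84.7%). Upstream of the start site it reached a median of 716 bp in the knockdown list and 908.5 bp in the control list, less far at 23 of 28 members (all genes: 77.2%). It reached a median of 620.5 bp into the gene in the knockdown list and 837 bp in the control list, less far at 20 of 28 members (all genes: 78.7%). These shares are close to those of all genes. NOP2 had the largest narrowing, to 1562 bp in the knockdown list against 3224 bp in the control list, though its reads were 64 and 63. PES1 went the other way, with 1734 bp in the knockdown list and 1054 bp in the control list.

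**Figure D4:**
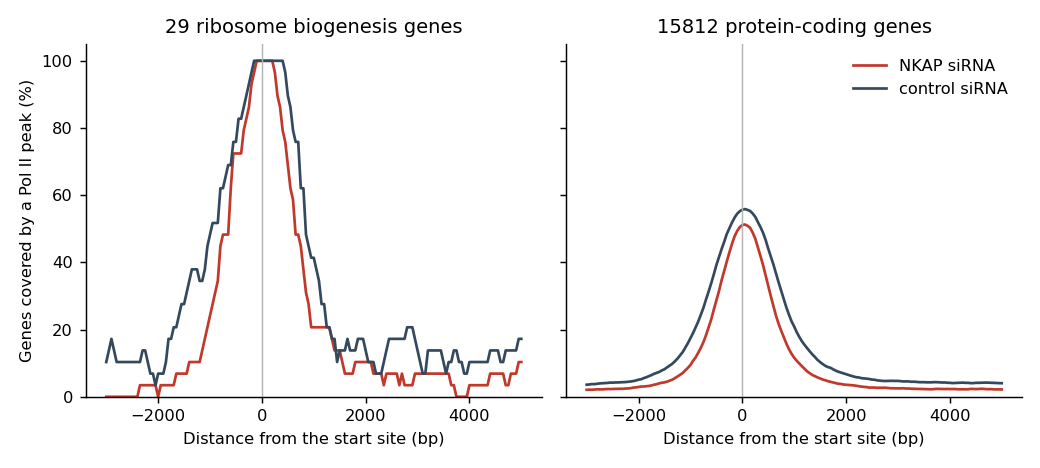
Share of genes covered by a Pol II peak at each distance from the start site (bp, positive into the gene), for the 29 members (left) and for 15812 protein-coding genes (right), in NKAP siRNA cells (red) and control siRNA cells (dark). Both lists cover 100% of the member start sites and 51.1% and 55.7% of all start sites, and the knockdown curve is the narrower in each panel.

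Over the whole member windows, start sites included, the knockdown list covered less sequence. Peaks in the member windows numbered 97 in the knockdown list and 145 in the control list, and covered 103368 bp and 163346 bp, a ratio of 0.633; over all protein-coding genes the ratio was 0.627. The median width of these peaks was 736 bp in the knockdown list and 800 bp in the control list. Less sequence was covered in the knockdown list at 33 of 36 members (all genes with any covered sequence: 86.1%), and more at UTP4, RRP12 and RRP1B (all genes: 13.9%). Of the knockdown peaks 88 of 97 (90.7%) overlapped a control peak (all knockdown peaks: 82.8%), and of the control peaks 79 of 145 (54.5%) overlapped a knockdown peak (all control peaks: 54.2%). The 66 control peaks without a partner had a median of 14 reads and at most 24, and the 9 such knockdown peaks a median of 13 and at most 18. Most were thus weaker than the median peak of their list, though a few control peaks were stronger, such as that of 24 reads at NHP2. Pol II below the threshold of a list would not be listed.

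By zone, the covered length in the knockdown list was 0.842 times that in the control list within 1000 bp of the start sites (all genes: 0.779), 0.548 times within 1000 bp of the 3′ ends (all genes: 0.604) and 0.445 times in the bodies between them (all genes: 0.493). Upstream flanks had 0.300 times the control length (all genes: 0.544) and downstream flanks 0.625 times (all genes: 0.580). The upstream flanks rest on few peaks, 3 summits in the knockdown list and 10 in the control list. A summit there was found in both lists at 3 of 29 members (all genes: 5.84%). The knockdown list alone held one at 0 of 29 (all genes: 2.09%) and the control list alone at 4 of 29 (all genes: 5.34%).
At the 3′ ends a summit was found in both lists at 5 of 29 members (all genes: 6.24%). The knockdown list alone held one at 1 of 29 (all genes: 2.19%) and the control list alone at 6 of 29 (all genes: 6.01%). Downstream flanks had one in both lists at 13 of 29 members, a larger share than the 12.6% of all genes. They had one in the knockdown list alone at 2 of 29 (all genes: 2.25%). In the control list alone it was 3 of 29 (all genes: 7.26%). Body summits were found in both lists at 6 members (20.7% of 29, all genes: 17.1%), at 0 in the knockdown list alone (all genes: 2.99%) and at 3 in the control list alone (all genes: 10.7%), namely NHP2, BYSL and PES1.

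The members with the most covered sequence in their windows, flanks included, were NPM1, UBTF, BOP1, NCL and NOP56. NPM1 had 11270 bp covered in the knockdown list and 15358 bp in the control list, with 8 and 10 body summits, the last of them 21225 and 21085 bp past the start site. NOP56 had 7393 and 9864 bp and NCL 6642 and 10384 bp, each with a peak over the 3′ end in both lists. BOP1 had 10068 and 11526 bp in its window. Its widest peaks, 6317 and 7907 bp in full, lay mostly in the flank at its lower-coordinate end. They ran past the edge of the window, so only part of each is in these totals. UBTF stood apart from these, with 5832 bp in the knockdown list and 14448 bp in the control list. Of its 8 body summits in the control list, 7 peaks of 10 to 21 reads had no partner in the knockdown list. NHP2 had the smallest remaining share, 891 bp in the knockdown list in a single peak at the start site, against 5641 bp in 5 peaks in the control list; 1 of the others lay beside an end of RMND5B.

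**Figure D5:**
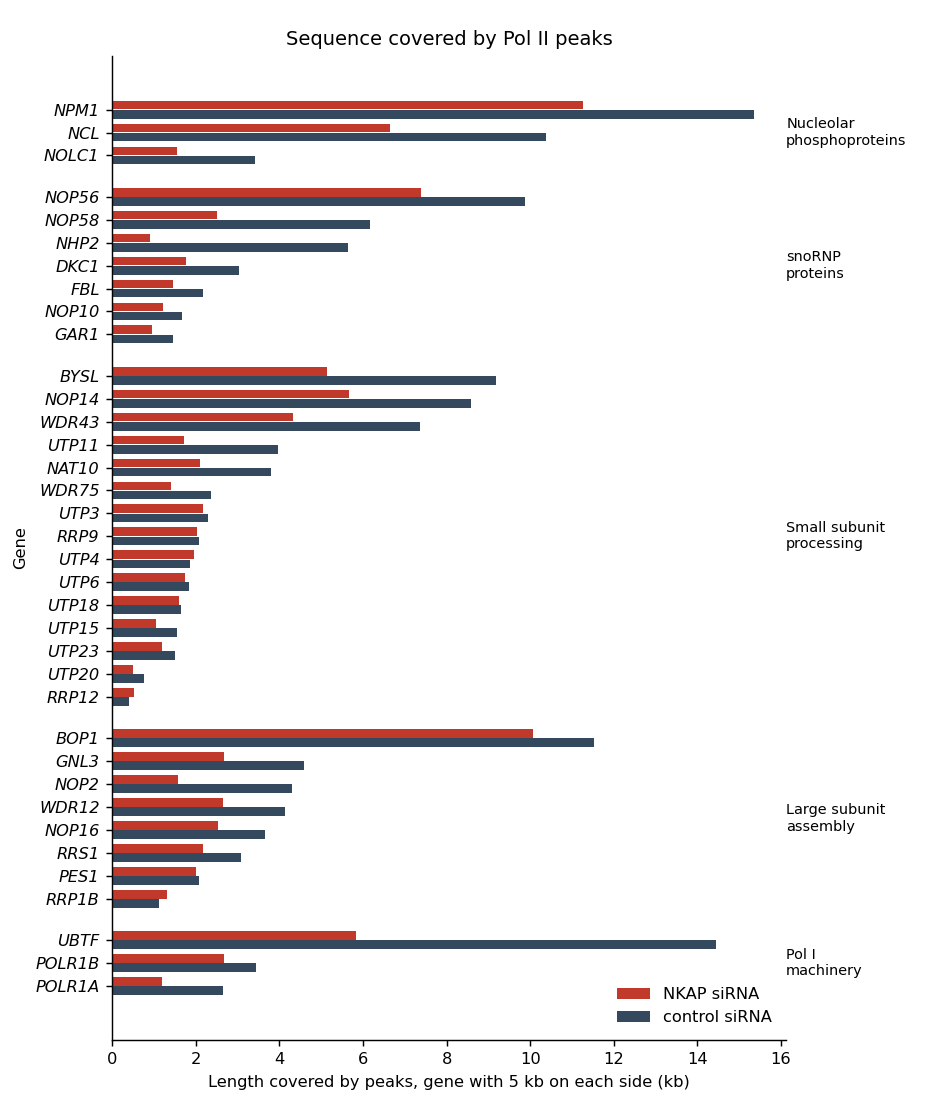
Length covered by Pol II peaks in each gene with 5 kb on each side (kb), grouped by role, in NKAP siRNA cells (red, upper bar) and control siRNA cells (dark, lower bar); each bar is 1 library. The knockdown bar is the shorter at 33 of 36 genes, with the widest gap at UBTF (5832 and 14448 bp).

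Members that host snoRNA genes had more Pol II at the median than the others. The gene table places 23 snoRNA genes inside 7 members: NOP56 (among them SNORD56 and SNORD57), GNL3, NOP58, NCL (SNORA75, SNORD20 and SNORD82), WDR43, DKC1 (SNORA36A and SNORA56) and UTP20. The hosts had a median of 74 reads in the knockdown library and 90 in the control library, and the other 29 members 40 and 45. UTP20, with 19 and 21 reads, and DKC1, with 32 and 37, lay below the medians of the others. Their ratios relative to the median gene had medians of 1.12 for hosts and 1.10 for the others. Covered lengths were 25799 bp in the knockdown list and 42184 bp in the control list for the hosts, a ratio of 0.612, against 0.640 for the others.

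At some members the strongest summit lay close to an end of a neighbouring gene. The strongest control summit lay within 1000 bp of an end of another protein-coding gene at 17 members and the strongest knockdown summit at 16, among them GNL3 with PBRM1, BYSL with MED20, UTP23 with EIF3H, RRP1B with HSF2BP, RRP9 with PARP3 and NOP16 with HIGD2A. The gene table gives both ends of a gene, so the neighbour's end can be its start or its 3′ end. Reads at such a summit cannot be assigned to a single gene. The share over all protein-coding genes was not counted, so these counts limit the reading of the members and are not a trait of them. NPM1 has processed copies elsewhere in the genome, and how the authors placed reads that match several sites is not given in the sources used here.

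The rest of the pathway had the same pattern of presence. Of 86 other ribosome biogenesis genes, 85 had a peak within 5000 bp in both lists and 0 in a single list; POLR1H, a small Pol I subunit, had none. Their median relative ratio was 0.997, with 41 above and 43 below the median gene, and the covered length ratio was 0.607. The highest ratios were those of NLE1 (24 reads in the knockdown library and 17 in the control library, 1.83), WDR36 (34 and 29 reads, 1.52) and IMP4 (40 and 37 reads, 1.40). The lowest were those of RRN3, which recruits Pol I (18 and 39 reads, 0.597), DDX47 (24 and 51 reads, 0.609) and EXOSC2, of the RNA exosome (23 and 47 reads, 0.633). RRN3 also has near-identical copies. At the gene ends 82 of 86 had a peak in both lists, PWP2 and EXOSC4 in the control list alone, and PAK1IP1 and POLR1H in neither. By group the median ratio was 0.996 for 32 small subunit genes, 1.04 for 28 large subunit genes, 1.05 for 11 genes of the Pol I group with a summit in both lists, and 0.960 for 14 other nucleolar and exosome genes.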

How the data were processed

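Pol II ChIP-seq peak lists of 1 knockdown and 1 control library were used. The submitters' processing notes name bcl2fastq 2.17, Trimmomatic 0.33, Bowtie 1.1.2, MACS2 2.1.0 and hg38, without settings. For each peak the deposited columns hold the position, a score (10 times the −log10 q-value), the fold ratio of the summit over its background, and the −log10 of the p-value and of the q-value, all made by the authors' caller. Each list holds the peaks of 1 library.

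Reads at a summit were recovered by solving fold and p together for a whole number of reads; the misfit was below 0.01 of a read for 99.8% of knockdown and 99.9% of control peaks. The knockdown values fitted a scale of 0.926 per read, which was divided out. Recovery was tested on simulated data. Depth was estimated from the lowest background and the smallest peak width (225 and 229 bp). Summit counts set the precision: 14 to 134 reads per member, with exact Poisson or conditional 95% intervals that cover counting error only, as do all intervals here, since reads carry no molecular identifiers.

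The strongest peak of a gene is that of lowest p-value with its summit in the window. Peaks overlap when they share at least 1 bp. Peaks on other sequences (1526 knockdown, 2218 control) and the inputs were not used. Start sites came from the RefSeq promoter table. Alternatives were a −log10 q-value of at least 5, equal list lengths, windows of 1000 and 2000 bp, gene-end widths of 500 and 2000 bp, stricter overlaps and other choices of summit. Members, lists and motifs were chosen with earlier results of these data known. Named genes were all members, in full where the ratio was among the 5 highest or lowest or the protein is a core one; of other pathway genes, those not in both lists and the 3 highest and lowest. Analyses used Python 3.11.15, numpy 2.4.6, pandas 2.3.3, scipy 1.17.1 and matplotlib 3.10.9.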

Additional observations from a re-analysis of the deposited data

How the results depend on the processing

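No paired analysis was possible because each condition holds 1 ChIP library, and for the same reason no replicate could be left out. Under each alternative run, all 36 members had peaks in the knockdown and the control list with windows of 1000, 2000 and 5000 bp, and the median relative read ratio stayed between 1.10 and 1.12. The start-site reading was an alternative chosen after the data were seen. The members whose gene ends carried a control peak and no knockdown peak numbered 1 as reported, 2 with the stricter threshold, 2 with a half-width of 500 bp and 0 with 2000 bp. With equal numbers of strongest peaks 82.5% of knockdown and 71.6% of control peaks in the member windows were overlapped, and the covered length ratio was 0.731. Knockdown peaks were overlapped in 81.4% of cases when 50% of the shorter peak had to be shared, and in 74.2% when summits had to lie within 500 bp. With the window of 1000 bp, 1 other ribosome biogenesis gene had a peak in the control list alone. The causes were not tested. The remaining 64 comparisons of summary values stayed within 1.5 times, their interval or their side of the median gene. All 171 of single members stayed within their counting interval, which leaves room for a change of side. For example, within the strongest control peak BOP1 went from 1.08 to 0.892 and POLR1B from 1.10 to 0.874. With 14 to 134 reads a summit, differences of less than about the width of the intervals were not detectable.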
